A study of Mus musculus with 12 samples.

Results

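Semaphorins, plexins, ephrins and Eph receptors are the 4 protein families described here, in 12 mouse neuroendocrine thyroid carcinomas. Members were taken by gene symbol, and the families were chosen with earlier results of these data known. The symbols of classes 3 to 7 of the semaphorins, of the A to D plexins, of the A and B ephrins and of the EphA and EphB receptors gave 51 of 23284 genes in the count tables, namely 20 semaphorins, 9 plexins, 8 ephrins and 14 Eph receptors. In all, 5 tumours carried the genotype label Rb1/Trp53/Crebbp and are called RPC tumours, and 7 carried the label Rb1/Trp53 and are called RP tumours. Alterations of the tumour suppressor genes Rb1 and Trp53 are thus named for every tumour, and Crebbp, which encodes a histone acetyltransferase and transcriptional coactivator, is named for the RPC tumours alone. The series was made to find genes regulated by Crebbp. No label names the alleles, a Cre line or other driver, the age or strain of the mice, or whether every tumour came from a different mouse. The p-values set the difference between groups against the spread among these tumours, part of which may be technical. They treat the tumours as independent, which the labels do not settle.

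Semaphorins are secreted or membrane-bound proteins that steer growing axons and migrating cells, and plexins are their main receptors. Class 3 semaphorins are secreted and mostly need a neuropilin beside the plexin, whereas classes 4 to 7 are held at the membrane and bind plexins or other receptors directly. Eph receptors form the largest family of receptor tyrosine kinases and bind ephrins on neighbouring cells. A ephrins are held by a lipid anchor and mainly bind EphA receptors, while B ephrins span the membrane and mainly bind EphB receptors. Signals run into the cell that carries the receptor and, in reverse, into the cell that carries the ephrin, and contact between them commonly moves cells apart. C cells of the thyroid, the calcitonin-producing cells from which medullary carcinomas arise, are neuroendocrine cells.

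Reads per gene were counted by the authors. Gene counts were 9.14 M to 20.5 M in RPC tumours and 9.11 M to 57.3 M in RP tumours. The 51 genes together took 0.146% to 0.186% of gene counts in RPC tumours and 0.113% to 0.255% in RP tumours. Values below are counts per 1 M gene counts (CPM), scaled by the trimmed mean of M values, and 3 counts, taken as the floor of detection, made 0.142 to 0.275 CPM in RPC tumours and 0.0502 to 0.312 CPM in RP tumours. These limits cover counting error only. Crebbp itself stood at 53.9 ± 4.19 CPM in RPC tumours and 54.6 ± 20.0 CPM in RP tumours (SD, n = 5 and 7; log2 fold change -0.02 ± 0.20 SE; edgeR adjusted p = 0.957). A count over a whole gene can miss a deletion of a few exons, so the Crebbp values do not check the labels, and every direction below is between tumours as labelled.

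Markers of the labelled cell type were abundant. The summed level of 12 C cell and neuroendocrine markers, none of them at 0, was 26170 to 139200 CPM in RPC tumours and 96490 to 234600 CPM in RP tumours, with Calca, Scg2 and Chga at the highest levels. Of these markers 2 were higher and 1 was lower in RPC tumours. Markers of other cells moved with the label as well, and in bulk RNA fewer cells of a type cannot be told apart from less RNA per cell. Summed follicular cell markers were 394 to 5959 CPM in RPC tumours and 2038 to 9646 CPM in RP tumours, with 2 of 11 tested markers lower. Adipocyte markers summed to 55.9 to 138 CPM in RPC tumours and 81.3 to 1787 CPM in RP tumours, with 9 of 10 lower, and RP replicates 2, 4, 6 and 7 held the 4 highest sums. Endothelial markers summed to 87.5 to 226 CPM in RPC tumours and 125 to 253 CPM in RP tumours (3 of 12 lower), and fibroblast markers to 585 to 2004 CPM in RPC tumours and 868 to 3703 CPM in RP tumours (2 of 10 lower). Of 8 mural cell markers 4 were lower, at summed levels of 86.8 to 509 CPM in RPC tumours and 118 to 309 CPM in RP tumours. The sums of skeletal muscle markers were highest in RPC replicate 5 (3429 CPM) and RP replicate 6 (3251 CPM). Macrophage markers summed to 127 to 278 CPM in RPC tumours and 144 to 754 CPM in RP tumours, with none of 10 called. Lymphocyte markers summed to 3.30 to 6.66 CPM in RPC tumours and 11.55 to 42.5 CPM in RP tumours, without overlap, and 1 of the 2 tested was lower. Schwann cell markers summed to 104 to 131 CPM in RPC tumours and 125 to 170.1 CPM in RP tumours, with 2 of 6 lower. Airway and squamous epithelium markers summed to 21.6 to 1506 CPM in RPC tumours and 38.2 to 1996 CPM in RP tumours, with 1 of 6 tested higher and 1 lower. Their highest sums were in RPC replicate 5 and RP replicate 7. The part of all these markers in the results below was not tested beyond the covariate fits given with them.

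Of the 51 genes, 48 passed the filter on low counts and were tested between genotypes with edgeR's quasi-likelihood test, fitted and adjusted over all 14989 genes that passed. At an adjusted p under 0.05, 8 members were higher in RPC tumours and 5 were lower, together 27.1% of those tested, where 18.3% of all tested genes were called (9.64% higher and 8.61% lower). The groups did not overlap for 5 members, or 10.4%, against 6.26% of all tested genes. The median log2 fold change of the 48 was -0.002, and that of all tested genes was -0.02. Both called Eph receptors (Epha4 and Epha5) and all 4 called plexins (Plxna2, Plxna3, Plxna4 and Plxnc1) were higher. The 3 called semaphorins (Sema3f, Sema4a and Sema6b) were lower. Of 8 ephrins 4 were called, or 50%, with the B ephrins Efnb2 and Efnb3 higher and the A ephrins Efna1 and Efna4 lower. Of the ephrins not called, Efnb1 (log2 fold change -0.46) and Efna2 (0.43) went against the called genes of their class. Efna3 (-0.05) and Efna5 (-0.40) went with them. Whether one family differed from another was not tested.

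**Figure D1:**
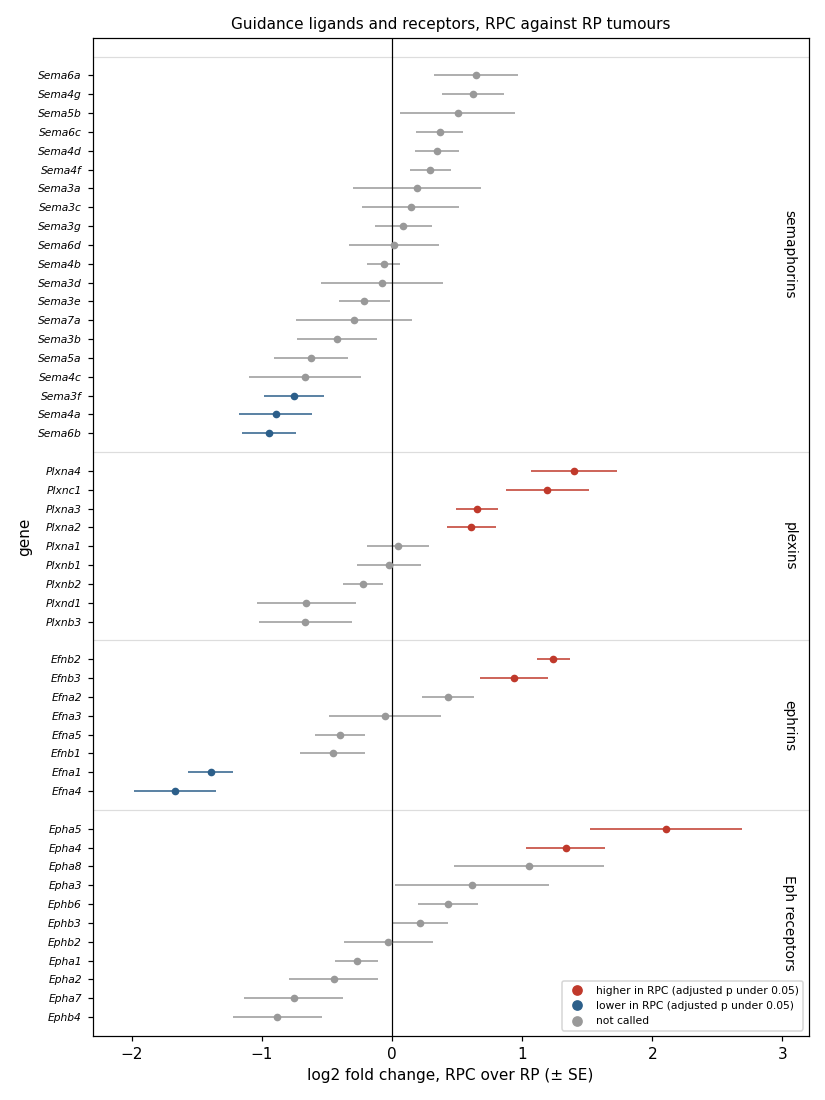
Log2 fold change of each of the 48 tested genes, RPC over RP, with its standard error as a bar; genes run down the page by family, and colour marks the 8 higher, the 5 lower and the 35 not called. Called semaphorins all lie below 0 and called plexins all above it, while ephrins hold both the lowest value of the 48, Efna4 at -1.67, and Efnb2 at 1.24.

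Ephrins held the changes with the smallest p-values. Efnb2, which encodes ephrin-B2, a transmembrane ligand of EphB4 known from arterial endothelium and from neurons, stood at 22.9, 30.8, 25.0, 26.6 and 25.9 CPM in RPC replicates 1 to 5, against 9.29 CPM at the lowest, 10.99 CPM at the median and 14.5 CPM at the highest of the RP tumours. Every RPC tumour lay above every RP tumour. The rise was 2.36-fold (log2 fold change 1.24 ± 0.13 SE; edgeR adjusted p = 4.1e-04). Efnb3, which encodes ephrin-B3, a midline guidance cue of the nervous system, had 6.49, 5.86, 3.96, 4.44 and 6.30 CPM in the RPC tumours, against 1.65, 2.66 and 4.01 CPM at the lowest, median and highest of the RP tumours. RPC replicate 3 lay just below RP replicate 1, and the other RPC tumours lay above all RP tumours. The rise was 1.92-fold (log2 fold change 0.94 ± 0.26 SE; adjusted p = 0.0295), and the call was lost without RP replicate 4 or 6 or without RPC replicate 1, 2 or 5 (adjusted p up to 0.0774). Efnb1, the remaining B ephrin, did not pass the test, at 30.6, 30.9, 43.4, 25.0 and 21.1 CPM in RPC tumours and 29.3, 35.3 and 77.1 CPM at the lowest, median and highest of the RP tumours (log2 fold change -0.46 ± 0.25 SE; adjusted p = 0.209).

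Efna1 and Efna4 fell. Efna1 encodes ephrin-A1, a lipid-anchored ligand of EphA2 that was found as a product of cytokine-treated endothelial cells. It had 7.44, 5.50, 8.68, 7.73 and 6.23 CPM in RPC replicates 1 to 5, against 14.5, 17.9 and 24.0 CPM at the lowest, median and highest of the RP tumours. All RPC tumours lay below all RP tumours, and the level was 2.63-fold lower (log2 fold change -1.39 ± 0.17 SE; adjusted p = 0.00128). Efna4, which encodes ephrin-A4, had 0.882, 0.550, 1.32, 1.51 and 1.09 CPM in the RPC tumours, against 2.04, 3.30 and 4.87 CPM at the lowest, median and highest of the RP tumours. It was 3.17-fold lower with no overlap between the groups (log2 fold change -1.67 ± 0.31 SE; adjusted p = 0.00751).

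In the RefSeq annotation of GRCm38.p6, Efna1, Efna3 and Efna4 lie next to each other on chromosome 3 with no protein-coding gene between them. Efna3, the middle gene, did not pass the test, at 0.630, 0.458, 1.27, 0.977 and 1.88 CPM in RPC tumours and 0.520, 1.06 and 1.97 CPM at the lowest, median and highest of the RP tumours (log2 fold change -0.05 ± 0.43 SE; adjusted p = 0.943). It had 5 to 35 counts per tumour, which limits the precision of this value. The A ephrins on other chromosomes were Efna5 and Efna2. Efna5, which encodes a guidance cue of the retina and cortex and was the A ephrin with the highest level per kb of exon, had 33.0, 24.6, 35.3, 60.4 and 32.9 CPM in RPC tumours and 38.6, 48.4 and 64.3 CPM at the lowest, median and highest of the RP tumours. RPC replicate 4 lay inside the RP range and the other RPC tumours below it, and the difference did not pass (log2 fold change -0.40 ± 0.19 SE; adjusted p = 0.155). Efna2 differed by 0.43 ± 0.20 on the log2 scale (SE; adjusted p = 0.143). Summed per kb of exon over the 5 A ephrins, levels were 16.4, 15.0, 19.5, 23.8 and 16.8 CPM per kb in RPC replicates 1 to 5, against 23.9, 28.6 and 31.2 CPM per kb at the lowest, median and highest of the RP tumours. The sum of the B ephrins was 13.9 to 19.8 CPM per kb in RPC tumours and 11.8 to 27.4 CPM per kb in RP tumours.

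The stretches before the starts of 4 called genes are shown as examples. Efnb2 and Epha4 are the called members whose window held the core marked below. Efna1 and Efna4 lie beside each other on the chromosome but for Efna3. Each runs 5′ to 3′ along the gene, from 250 bases before to 50 bases after a RefSeq start on GRCm38.p6. Capitals mark the core TGACG, or CGTCA on the other strand, of the cAMP response element that CREB proteins bind, since Crebbp was named for its binding to CREB.
Efnb2, chr8:8661193-8661492, minus strand: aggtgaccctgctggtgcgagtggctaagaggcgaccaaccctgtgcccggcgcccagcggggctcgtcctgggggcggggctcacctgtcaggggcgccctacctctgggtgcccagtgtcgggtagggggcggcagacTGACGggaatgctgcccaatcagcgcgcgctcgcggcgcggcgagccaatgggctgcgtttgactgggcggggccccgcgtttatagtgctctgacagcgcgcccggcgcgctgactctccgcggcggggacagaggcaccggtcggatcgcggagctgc
Epha4, chr1:77515039-77515338, minus strand: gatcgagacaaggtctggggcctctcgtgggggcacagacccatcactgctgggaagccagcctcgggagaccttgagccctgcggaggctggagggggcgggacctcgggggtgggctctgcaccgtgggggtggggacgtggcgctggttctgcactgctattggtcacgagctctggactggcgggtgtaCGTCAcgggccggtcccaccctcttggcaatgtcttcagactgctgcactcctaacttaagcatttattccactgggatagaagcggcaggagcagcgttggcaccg
Efna1, chr3:89279596-89279895, minus strand: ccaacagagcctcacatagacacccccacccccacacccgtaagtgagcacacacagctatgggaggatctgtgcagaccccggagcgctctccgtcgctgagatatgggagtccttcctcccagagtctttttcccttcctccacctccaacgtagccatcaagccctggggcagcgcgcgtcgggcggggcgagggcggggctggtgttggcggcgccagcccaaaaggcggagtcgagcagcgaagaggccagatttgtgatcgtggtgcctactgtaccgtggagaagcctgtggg
Efna4, chr3:89337979-89338278, minus strand: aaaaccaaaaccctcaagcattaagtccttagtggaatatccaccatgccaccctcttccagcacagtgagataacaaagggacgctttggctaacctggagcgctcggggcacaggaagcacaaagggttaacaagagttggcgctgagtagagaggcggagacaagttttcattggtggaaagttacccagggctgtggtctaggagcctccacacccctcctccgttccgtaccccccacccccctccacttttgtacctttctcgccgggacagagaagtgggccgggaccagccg
The core began at base -110 in Efnb2 and at base -57 in Epha4, counted from the start, and was absent from the windows of Efna1 and Efna4 shown. It was also absent from the other windows of called genes, those of Efna1 at another start, of Epha5, Plxna2, Plxna3 and Plxnc1, which rose, and of Sema4a and Sema6b, which fell. The other members with the core, Efnb1, Epha2, Ephb1, Ephb3, Sema3d, Sema5a and Sema7a, were not called or not tested. Of 32851 windows of this length in the RefSeq table, 20.8% held the core and 1.79% held the full element TGACGTCA, which contains the core on both strands. Windows were given for 45 of the 51 genes, with 59 windows in all, of which 9 held the core and 1, that of Epha2, held the full element. The TATA box letters TATAAA, on either strand, were searched as well. They were held by 1 of the 59 windows, that of Efnb2, and by 13.6% of all windows. No window was given for Efnb3, Plxna1, Plxna4, Sema3b, Sema3f or Sema6a. These matches describe letters in a window and not binding sites.

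Among the Eph receptors, 2 of 11 tested rose and none fell. The 18.2% called lay near the 18.3% of all tested genes called in either direction and above the 9.64% called higher. Epha4, which encodes a receptor for both A and B ephrins, had 2.58, 4.31, 2.22, 1.95 and 4.63 CPM in RPC replicates 1 to 5, against 0.787, 1.14 and 2.06 CPM at the lowest, median and highest of the RP tumours. RPC replicate 4 lay just under RP replicate 5, and the other RPC tumours lay above the RP range. The rise was 2.52-fold (log2 fold change 1.34 ± 0.30 SE; edgeR adjusted p = 0.0148). Epha5, which encodes a receptor found mainly in neurons, had 13.7, 40.0, 17.1, 12.9 and 26.3 CPM in the RPC tumours, against 0.866, 3.02 and 10.02 CPM at the lowest, median and highest of the RP tumours. RP replicates 1, 5 and 7 had 8.15, 10.01 and 10.02 CPM, near the lowest RPC value. The other RP tumours had 0.866 to 3.02 CPM, on 11 to 29 counts each. The groups did not overlap, and the rise of 4.30-fold was the largest fold change of the 48 genes in either direction (log2 fold change 2.10 ± 0.58 SE; adjusted p = 0.0291). The Epha5 call was lost without RP replicate 6 or without RPC replicate 2 or 5 (adjusted p up to 0.0882).

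The Eph receptors with the highest levels per kb were Ephb6, Ephb2 and Ephb3, and none of them passed the test. Ephb6, whose kinase domain lacks activity, had 49.7, 27.4, 39.2, 44.8 and 54.8 CPM in RPC tumours and 19.8, 28.3 and 45.8 CPM at the lowest, median and highest of the RP tumours (log2 fold change 0.43 ± 0.23 SE; adjusted p = 0.193). Ephb2, a receptor of intestinal crypts and axon tracts, had 81.0, 118, 109, 86.8 and 51.8 CPM in RPC tumours, against 50.04, 67.0 and 203 CPM at the lowest, median and highest of the RP tumours (log2 fold change -0.03 ± 0.34 SE). Ephb3 had 34.1, 48.6, 40.4, 27.1 and 30.8 CPM in RPC tumours and 21.8, 28.9 and 51.4 CPM at the lowest, median and highest of the RP tumours (log2 fold change 0.22 ± 0.22 SE). The ranges of all 3 genes overlapped widely. Ephb4, the receptor of ephrin-B2 and known from veins, had 5.23, 2.57, 5.09, 8.88 and 12.8 CPM in RPC tumours, against 9.51, 10.7 and 17.6 CPM at the lowest, median and highest of the RP tumours. It missed the threshold (log2 fold change -0.88 ± 0.34 SE; adjusted p = 0.0897), while DESeq2, limma voom and the fit without RPC replicate 5 called it. Epha2, the receptor of ephrin-A1, differed by -0.45 ± 0.34 on the log2 scale (SE; adjusted p = 0.367), and Epha1, Epha3, Epha7 and Epha8 did not pass either. Epha6, Epha10 and Ephb1 were below the filter, with at most 3, 28 and 26 counts in any tumour.

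**Figure D2:**
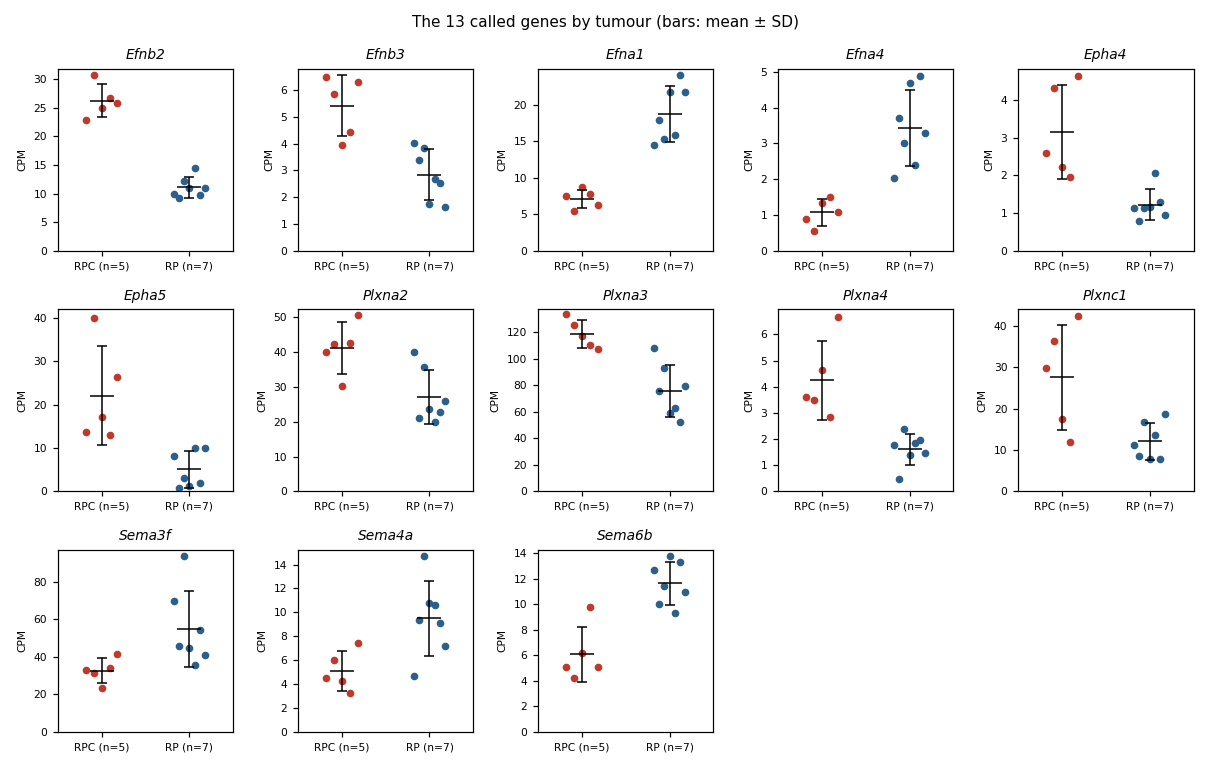
CPM of the 13 called genes in each tumour, RPC on the left (n = 5) and RP on the right (n = 7), with 1 point per tumour and the mean ± SD in black; every vertical axis starts at 0. Points of the groups are apart for Efnb2, Efna1, Efna4, Epha5 and Plxna4 and overlap for the other 8.

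Plexins rose in 4 of 9 tested members and fell in none. The 44.4% called compare with 18.3% of all tested genes called in either direction and 9.64% called higher. Plxna3, which encodes the receptor that acts with neuropilin 2 for semaphorin 3F, had 133, 125, 117, 111 and 107.5 CPM in RPC replicates 1 to 5, against 52.5, 75.5 and 108.0 CPM at the lowest, median and highest of the RP tumours. RPC replicate 5 lay just below RP replicate 1, and the other RPC tumours lay above the RP range. The rise was 1.57-fold (log2 fold change 0.65 ± 0.16 SE; adjusted p = 0.0204), and it was not called without RPC replicate 1 or 2 (adjusted p up to 0.0591). Plxna4, a receptor for class 3 and class 6 semaphorins in neurons, had 3.59, 3.48, 4.62, 2.84 and 6.66 CPM in RPC tumours, against 0.472, 1.76 and 2.39 CPM at the lowest, median and highest of the RP tumours. The groups were apart, with a rise of 2.64-fold (log2 fold change 1.40 ± 0.33 SE; adjusted p = 0.0178). Its reads cannot be told apart from those of the antisense gene Plxna4os1. Other annotated genes, absent from the count tables, overlap the called members Epha4, Epha5, Plxna2, Plxna3 and Sema4a. Plxna2, also a receptor for class 3 and class 6 semaphorins, had 40.1, 42.4, 30.1, 42.8 and 50.8 CPM in RPC tumours, against 19.8, 23.6 and 40.2 CPM at the lowest, median and highest of the RP tumours. RPC replicates 1 and 3 lay within the RP range. The rise of 1.53-fold was close to the threshold (log2 fold change 0.61 ± 0.19 SE; adjusted p = 0.0427) and was called in 3 of the 12 fits that left out 1 tumour, those without RP replicate 1 or 3 or RPC replicate 3 (adjusted p up to 0.107 in the other fits).

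Plxna1, the fourth A plexin, differed by less than its spread, at 43.1 to 49.5 CPM in RPC tumours and 26.8 to 82.6 CPM in RP tumours (log2 fold change 0.04 ± 0.24 SE; adjusted p = 0.911). Summed per kb of exon, the A plexins stood at 28.6, 27.0, 25.4, 24.9 and 25.9 CPM per kb in RPC replicates 1 to 5, against 14.25, 16.65 and 25.95 CPM per kb at the lowest, median and highest of the RP tumours. RP replicate 3 lay inside the RPC range, RP replicate 1 lay just below it at 24.86 CPM per kb, and the other RP tumours reached 16.85 CPM per kb at most. Plxnc1, which encodes the receptor of semaphorin 7A, had 29.9, 36.3, 17.6, 11.9 and 42.4 CPM in RPC tumours, against 7.80, 11.2 and 18.6 CPM at the lowest, median and highest of the RP tumours. RPC replicates 3 and 4 lay inside the RP range, and the rise was 2.29-fold (log2 fold change 1.19 ± 0.32 SE; adjusted p = 0.0256). This call was lost without RP replicate 2 or 4 or without RPC replicate 1, 2 or 5 (adjusted p up to 0.0762).

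Plxnb2, the plexin with the highest level per kb, did not pass the test. It encodes a receptor of class 4 semaphorins, and had 326, 334, 320.3, 294 and 310.1 CPM in RPC tumours, against 276, 347 and 561 CPM at the lowest, median and highest of the RP tumours (log2 fold change -0.22 ± 0.16 SE; adjusted p = 0.326). Plxnb1, the receptor of semaphorin 4D, had 114, 126, 130.3, 107 and 77.2 CPM in RPC tumours and 57.6, 104 and 183 CPM at the lowest, median and highest of the RP tumours (log2 fold change -0.02 ± 0.25 SE; adjusted p = 0.963). Both genes spread more among RP than among RPC tumours. Plxnd1, the receptor of semaphorin 3E and known from endothelium, differed by -0.66 ± 0.38 on the log2 scale (SE; adjusted p = 0.234), and Plxnb3 by -0.66 ± 0.35 (SE; adjusted p = 0.196). Neither passed.

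**Figure D3:**
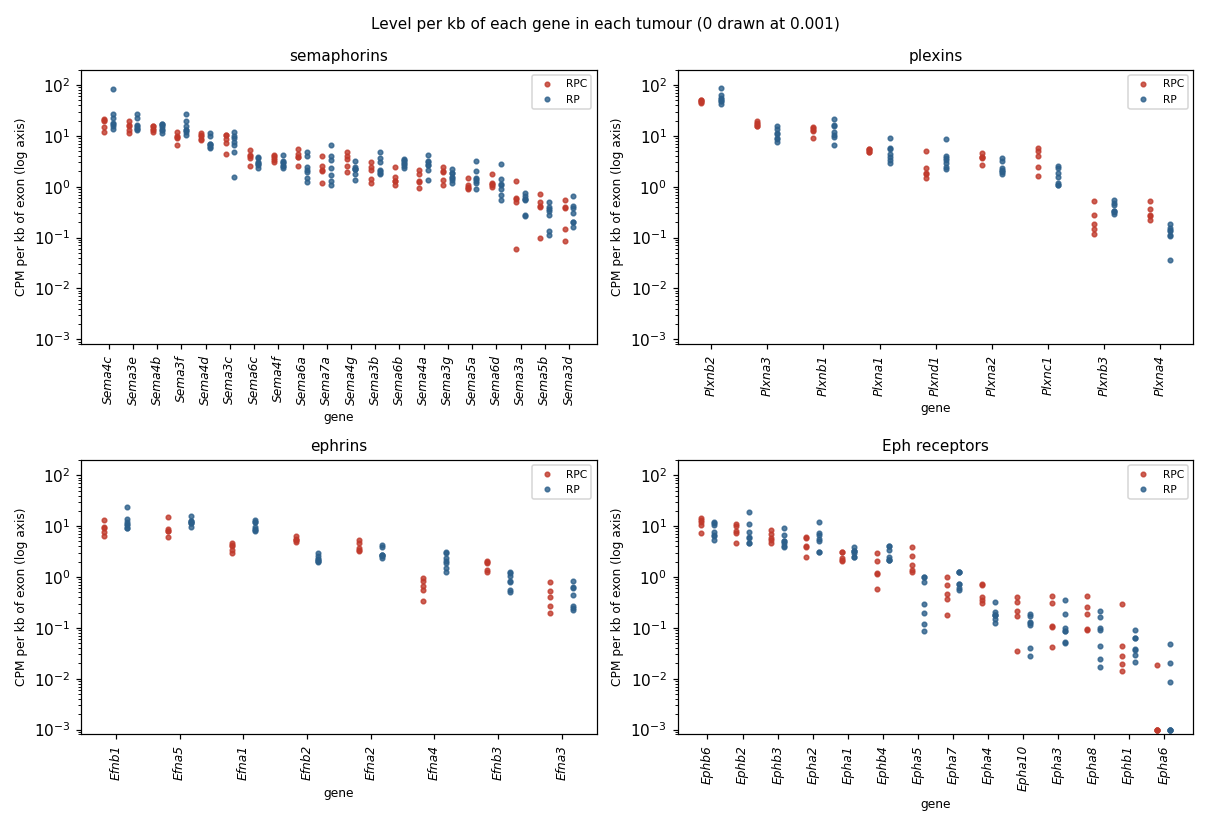
Level of each of the 51 genes in CPM per kb of exon on a log axis, by family, with RPC tumours left of RP tumours and 1 point per tumour; the lowest line holds tumours without a count. Genes are ordered by mean level over the 12 tumours, from Plxnb2 (52.9 CPM per kb) among plexins, Sema4c (23.9), Efnb1 (11.3) and Ephb6 (9.76 CPM per kb) downwards.

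Semaphorins fell in 3 of 20 members and rose in none. The 15% called lay below the 18.3% of all tested genes called in either direction and above the 8.61% called lower. Sema6b, which encodes a transmembrane ligand of plexin A4, had 5.11, 4.22, 6.13, 9.77 and 5.07 CPM in RPC replicates 1 to 5, against 9.32, 11.4 and 13.8 CPM at the lowest, median and highest of the RP tumours. Only RPC replicate 4 reached the RP range, and the level was 1.92-fold lower (log2 fold change -0.94 ± 0.21 SE; edgeR adjusted p = 0.0139). Sema3f, which encodes a secreted semaphorin that binds neuropilin 2, had 32.9, 31.2, 23.4, 34.0 and 41.7 CPM in RPC tumours, against 35.7, 45.9 and 93.7 CPM at the lowest, median and highest of the RP tumours. RPC replicate 5 lay inside the RP range, and the fall was 1.68-fold (log2 fold change -0.75 ± 0.23 SE; adjusted p = 0.0421). Sema4a, which encodes a membrane semaphorin of immune cells and of the retina, had 4.47, 6.05, 4.25, 3.29 and 7.46 CPM in RPC tumours, against 4.71, 9.36 and 14.7 CPM at the lowest, median and highest of the RP tumours. RPC replicates 2 and 5 lay inside the RP range, and the fall was 1.86-fold (log2 fold change -0.89 ± 0.28 SE; adjusted p = 0.0429). Sema3f was called in 4 and Sema4a in 3 of the 12 fits that left out 1 tumour. Sema3f was not called without RP replicate 1, 2, 4 or 6 or without RPC replicates 1 to 4 taken singly (adjusted p up to 0.0964). Sema4a was not called without any 1 of RP replicates 2 to 6 or of RPC replicates 1 to 4 (adjusted p up to 0.0957).

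The semaphorins with the highest levels per kb were Sema4c, Sema3e and Sema4b, and none of them passed. Sema4c, which encodes a ligand of plexin B2, had 88.4, 93.1, 82.9, 64.1 and 50.6 CPM in RPC tumours, against 57.8, 76.7 and 359 CPM at the lowest, median and highest of the RP tumours (log2 fold change -0.67 ± 0.43 SE; adjusted p = 0.283). The highest value belonged to RP replicate 3. Sema3e, which encodes a secreted ligand that binds plexin D1 without a neuropilin, had 110, 77.3, 106, 133 and 89.3 CPM in RPC tumours and 89.3, 106 and 181 CPM at the lowest, median and highest of the RP tumours (log2 fold change -0.21 ± 0.20 SE; adjusted p = 0.451). Sema4b had 63.03, 48.9, 55.2, 63.7 and 52.2 CPM in RPC tumours and 45.5, 59.2 and 70.4 CPM at the lowest, median and highest of the RP tumours (log2 fold change -0.06 ± 0.13 SE). The other 14 semaphorins had log2 fold changes between -0.62 (Sema5a) and 0.65 (Sema6a), and their ranges overlapped. Sema7a, the ligand of plexin C1, was among them, at 3.91 to 12.96 CPM in RPC tumours and 3.48 to 22.2 CPM in RP tumours (log2 fold change -0.29 ± 0.45 SE; adjusted p = 0.664).

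Partners of these receptors were read from the same fit, over 4 lists of genes. Of 16 tested co-receptors and other semaphorin receptors 1 rose and none fell, or 6.25% called where 18.3% of all tested genes were called. The gene that rose was L1cam, a neural adhesion molecule and partner of neuropilin 1, at 54.4 ± 15.0 CPM in RPC tumours and 32.5 ± 6.45 CPM in RP tumours (SD, n = 5 and 7; log2 fold change 0.74 ± 0.19 SE; edgeR adjusted p = 0.0207). The neuropilins did not pass. Nrp1 stood at 26.3 ± 12.004 CPM in RPC tumours and 37.6 ± 10.4 CPM in RP tumours (log2 fold change -0.52 ± 0.27 SE; adjusted p = 0.190), and Nrp2 at 12.1 ± 4.97 CPM in RPC tumours and 19.3 ± 5.06 CPM in RP tumours (log2 fold change -0.67 ± 0.25 SE; adjusted p = 0.0758). Of 30 proteins downstream of plexins 2 rose and 1 fell, or 10% called, also below the 18.3% of all tested genes. Crmp1, a collapsin response mediator protein, rose 1.54-fold, and Arhgap35, listed under its older symbol Grlf1, rose 1.48-fold. Rras, which encodes a small GTPase that plexins inactivate, stood at 15.3 ± 5.08 CPM in RPC tumours and 40.0 ± 12.6 CPM in RP tumours, a fall of 2.61-fold (log2 fold change -1.39 ± 0.27 SE; adjusted p = 0.00904).

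Of 29 signalling proteins of Eph receptors and ephrins 6 rose and none fell. Grip1, which encodes a PDZ adaptor that binds the tails of B ephrins, ranged from 2.46 to 7.06 CPM in RPC tumours and from 0.650 to 1.56 CPM in RP tumours, a rise of 4.49-fold without overlap (log2 fold change 2.17 ± 0.30 SE; edgeR adjusted p = 0.00204). Nck2, which encodes the SH2 and SH3 adaptor that binds phosphorylated B ephrins, rose 1.38-fold (log2 fold change 0.46 ± 0.11 SE; adjusted p = 0.0155), also without overlap. Chn2, encoding a Rac GTPase-activating protein, rose 2.11-fold, Tiam1, encoding an exchange factor for Rac, rose 1.54-fold, Pik3r1 rose 1.39-fold and the adaptor gene Crk rose 1.21-fold. The share called in this list, 20.7%, lay near the 18.3% of all tested genes called in either direction and above the 9.64% called higher. Of 22 other guidance ligands and receptors 4 rose and none fell, a share of 18.2%, set against the same 18.3% and 9.64%. Ntn1, which encodes netrin 1, stood at 117 ± 38.4 CPM in RPC tumours and 38.6 ± 12.9 CPM in RP tumours, 3.05-fold higher (log2 fold change 1.61 ± 0.26 SE; adjusted p = 0.00426). The netrin receptor gene Unc5d rose 3.38-fold, the adhesion receptor gene Dscam 2.99-fold and the Slit receptor gene Robo1 1.87-fold.

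Tumours of the same genotype differed in these genes. The median standard deviation of log2 CPM over the 48 tested genes was 0.453 among RPC tumours and 0.488 among RP tumours. RP replicate 3 held the highest RP value of 18 of the 48 genes, Sema4c, Plxnb2, Plxnd1, Ephb2 and Efnb1 among them, and it also held the highest sums of fibroblast and macrophage markers. RPC replicate 5 held the highest RPC value of 17 genes, and RPC replicate 2 the lowest of 19. RPC replicate 2 had the lowest follicular and endothelial marker sums of the 12 tumours. Efnb2 was among the more even called genes, with a standard deviation of log2 CPM of 0.154 among RPC tumours and 0.218 among RP tumours. Epha5 spread more widely, at 0.688 among RPC tumours and 1.43 among RP tumours.

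**Figure D4:**
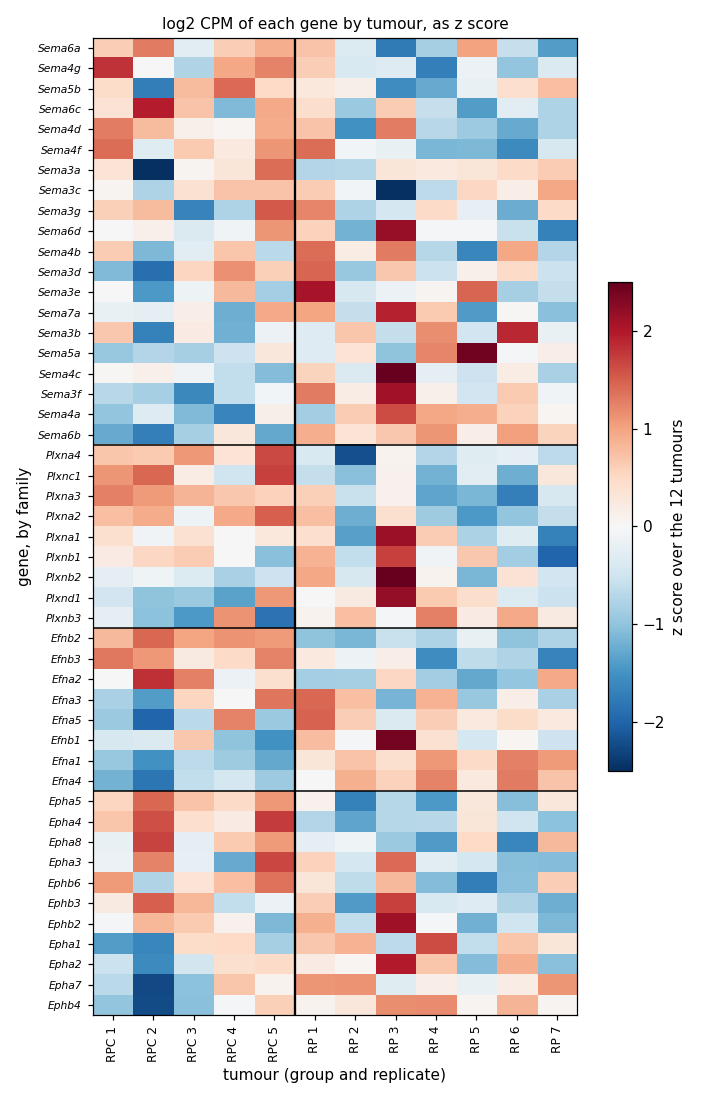
Log2 CPM of the 48 tested genes as z scores over the 12 tumours, with RPC replicates 1 to 5 left of the black line and RP replicates 1 to 7 right of it, and with genes ordered by fold change within each family. Efnb2 is above its mean in all 5 RPC tumours and below it in all 7 RP tumours, and RP replicate 3 is dark red across Plxnb2, Plxnd1, Ephb2, Efnb1 and Sema4c.

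Of the 13 called genes 6, namely Efnb2, Efna1, Efna4, Epha4, Plxna4 and Sema6b, were called in each of the 12 fits that left out 1 tumour, and all 13 kept their direction in each. The count of called members, 13 with all tumours, was 8 without RP replicate 4 or without RP replicate 6, 7 without RPC replicate 1 and 6 without RPC replicate 2. The share of all tested genes called, 18.3% with all tumours, was 10.4%, 11.3%, 8.73% and 7.08% in these fits, in the same order. The 5 lower members numbered 3 without any 1 of RP replicates 2, 4 and 6 or of RPC replicates 1 to 3. The 8 higher ones numbered 3 without RPC replicate 2 and 4 without RPC replicate 1 or 5. Without RP replicate 2, RPC replicate 3 or RPC replicate 5, 11%, 11.8% and 12% of all tested genes were called. With the endothelial marker score as a covariate 5 members were called, namely Efnb2, Efna1, Efna4, Epha4 and Plxna4. The same fit called 859, or 5.73%, of all tested genes, and the log2 fold change of Efnb2 was 1.22 ± 0.15 (SE; edgeR adjusted p = 0.00339). When the follicular score entered the fit, no member and 3 of all tested genes were called, and the values were 1.02 ± 0.22 for Efnb2, -0.94 ± 0.27 for Efna1 and -0.89 ± 0.48 for Efna4 (log2 fold change ± SE; adjusted p = 0.308, 0.343 and 0.636). In that fit Plxnc1 stood at -0.26 ± 0.41, below 0. The other genes kept their sign at other sizes, and the log2 fold change was 0.79 for Epha5, 0.46 for Epha4, 0.40 for Efnb3, 0.85 for Plxna4, 0.44 for Plxna3, 0.21 for Plxna2 and -0.37 for Sema6b, all nearer to 0 than without the score. Sema3f at -1.31 and Sema4a at -1.68 lay farther from 0. The follicular score was -1.52 to -0.122 in RPC tumours and -0.129 to 0.824 in RP tumours, so the ranges barely overlapped. Without RP replicates 2, 4, 6 and 7, the 4 tumours richest in adipocyte markers, Efnb2 was the only member called (log2 fold change 1.10 ± 0.17 SE; adjusted p = 0.0480), and Efna1 stood at -1.11 ± 0.19 (SE; adjusted p = 0.0619). That fit kept only RP replicates 1, 3 and 5, and 40 of its 15070 tested genes (0.265%) were called.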

How the data were processed

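Messenger RNA of 12 tumours was sequenced, per the labels' protocols after oligo(dT) selection. The deposited values are whole-number read counts by gene symbol, made by the authors, each tumour in its own table of 23284 genes. A further 5 rows of the counter's totals stayed out of library sizes and tests and held 28% to 34.3% of each table. HTSeq 0.6.1, TopHat2 2.0.12, bcl2fastq 1.8.2 and build mm9 are named, per the submitters' processing notes. Neither annotation nor strand setting is named, and reads of a gene and its antisense partner (Plxna4os1 beside Plxna4, for example) cannot be told apart.

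The filter was filterByExpr (minimum count 10), and scaling was by TMM. Genotypes were compared with edgeR 4.0.16 (R 4.3.3), robust quasi-likelihood F test, no covariates, Benjamini-Hochberg over 14989 genes, threshold 0.05. A standard error is the log2 fold change divided by the square root of F, and the prior count of log2 CPM was 2. The members and lists were chosen with earlier results of these data known. Genes given tumour by tumour are the called members, those without overlap and the 3 with the highest mean CPM of each family. Of each partner list, up to 6 called genes and the neuropilins are named with a mean, a range or a fold. Efna2, Efna3, Ephb4, Epha2, Plxna1, Plxnb3, Plxnd1, Epha8, Sema3b, Sema5a, Sema6a and Sema7a were chosen after their values were seen. Levels per kb use exon lengths of GENCODE M21 on GRCm38, since no mm9 annotation was used here. Promoter windows and gene neighbours are those of RefSeq on GRCm38.p6. Older symbols were used for 3 list genes. The script was tested on simulated data. Alternatives were DESeq2 1.42.0, limma 3.58.1 (voom), other scalings and filters, marker scores, a replicate block and leaving out tumours. The counts of every pair of libraries within a group differed by more than sampling noise.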

Additional observations from a re-analysis of the deposited data

Results flagged for a closer look

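Among 23 members given tumour by tumour, 46 groups were searched for a tumour far from the others of its group, and 3 values stood apart, where chance marks about 5% of groups. Sema4c had 359 CPM in RP replicate 3, against 115 CPM in the next highest RP tumour. Efnb1 had 77.1 CPM in RP replicate 3, against 45.1 CPM in the next. RP replicate 3 also held the highest fibroblast marker sum (3703 CPM) and macrophage marker sum (754 CPM) of the 12 tumours, and their part in these values was not tested. Epha4 had 2.06 CPM in RP replicate 5, the most deeply sequenced tumour, against 1.30 CPM in the next highest RP tumour, and without that tumour its log2 fold change was 1.51 in place of 1.34.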

How the results depend on the processing

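Over 25 alternatives, the 13 called members gave 325 values, of which 215 kept direction and call, 109 kept the direction but not the call, and 1 reversed (Plxnc1 at -0.26 with the follicular score). Of 13 members called, 8 were higher and 5 lower, with 2736 genes and 14 partner genes called. The cause of the changes in these counts was not tested. Limma voom with sample weights called 14 members higher, 10 lower, 6357 genes (42.4% of those tested) and 41 partner genes. Beyond the 13 members, voom called Efna2, Efna5, Epha7, Ephb3, Ephb4, Ephb6, Plxnb3, Sema4d, Sema4f, Sema5a and Sema6c. DESeq2 called 26 partner genes. Leaving out each tumour gave 3 to 10 members higher, 3 to 6 lower, 1074 to 3510 genes and 8 to 21 partner genes. The lowest count of genes was without RPC replicate 2 and the highest without RP replicate 3. Replicates 1 to 5 of both groups gave 1 member higher, 3 lower, 868 genes and 8 partner genes. With the tumour number as a replicate block they gave 1 higher, 1 lower, 463 genes and 4 partner genes. No label pairs the tumours by number, and these few tumours cannot settle whether same-numbered ones share a batch. Same-numbered tumours deviated together with correlations of -0.056 to 0.159, of which 2 of 5 were over 0.1. Only 1 RPC tumour correlated best with its own number. The follicular score as a covariate gave 0 and 0 members, 3 genes and 0 partner genes, with 8 members at an unadjusted p under 0.05. The endothelial score gave 3 higher, 2 lower, 859 genes and 8 partner genes. The fibroblast score gave 5 higher, 3 lower, 1961 genes (13.1% of those tested) and 13 partner genes. Chosen after seeing the data, leaving out the 4 adipocyte-rich RP tumours gave 1 higher, 0 lower, 40 genes and 0 partner genes, with 15 members at an unadjusted p under 0.05. Leaving out the 2 muscle-rich tumours, also chosen after seeing the data, gave 1 higher, 2 lower, 756 genes and 7 partner genes. Other scalings and filters called 12 or 13 members, and no scaling moved the median of all genes by over 0.1. Efna4, Efna3, Epha3, Epha4, Epha8, Plxna4, Plxnb3, Sema3d and Sema5b rest on few counts, so the sizes of their differences are less certain.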

Other observations

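The ratio of Efnb2 to Efna1, in CPM per kb, was formed after both differences were seen and is given as a description. It was 1.18, 2.14, 1.10, 1.32 and 1.59 in RPC replicates 1 to 5, against 0.156, 0.198 and 0.348 at the lowest, median and highest of the RP tumours. Efnb2 thus exceeded Efna1 per length in all 5 RPC tumours and in none of the 7 RP tumours.

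The neighbouring semaphorin genes Sema3b and Sema3f, with 3 protein-coding genes between them on chromosome 9 in the RefSeq annotation of GRCm38.p6, had log2 fold changes of -0.42 ± 0.31 and -0.75 ± 0.23 (SE), of which the second was called. Ephb2 and Epha8, parted on chromosome 4 by C1qb, C1qc and C1qa, had log2 fold changes of -0.03 ± 0.34 and 1.05 ± 0.58 (SE), and neither was called.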
